A study of Mus musculus with 2 samples.

Results

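Long-read RNA sequencing of the gastrocnemius, a calf muscle of mainly fast fibres, gave 3165 spliced transcript models that the deposited tables class as incomplete splice matches of the prefix kind, out of 94497 distinct intron chains with 2 or more exons. An incomplete splice match is a read whose introns match an uninterrupted stretch of the introns of another transcript model, and the prefix kind begins at that model's first intron and stops before its last. The members were all chains with this label in either library, matched between the libraries by chromosome, strand and intron chain. Of the 3165, 1845 carried the label in replicate 2 and 1743 in replicate 1, and 423 carried it in both, which is 22.9% of the replicate 2 list and 24.3% of the replicate 1 list. The mice were females of the B6CASTF1/J cross, a first generation from a laboratory and a wild-derived strain, aged 25 days. There was 1 untreated group with 2 biological replicates, whose labels give the same donor record and separate biosamples, and each library was made from 2 µg of total RNA. Every comparison below is therefore between 2 libraries and not between conditions.

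Mouse reads numbered 1557594 in replicate 2 and 1069771 in replicate 1. The floor for a chain with 0 reads, set at 3 reads, was 1.93 CPM in replicate 2 and 2.80 CPM in replicate 1, where CPM is the read count scaled to the mouse reads of the library. It covers counting error alone. Muscle fibre markers (Acta1, Ckm, Myh4, Tnnt3, Ryr1, Mylpf) were all present, as the tissue label says. Among them, Myh4 had 7960 CPM in replicate 2 and 16400 CPM in replicate 1, and Mylpf had 22400 CPM and 13600 CPM. Of filament genes outside this list, Tnnt1 had 5366 reads in replicate 2 and 204 in replicate 1, and Tnnc1 had 1878 and 129. Mybpc1 went the other way, with 1348 reads in replicate 2 and 2908 in replicate 1. The other marker lists, of 3 genes each, had no member at 0 in both libraries. Fibroblast markers summed to 1070 CPM in replicate 2 and 2880 CPM in replicate 1, though within this list Dcn had 363 CPM in replicate 2 and 205 CPM in replicate 1. Tendon markers summed to 290 CPM in replicate 2 and 29.9 CPM in replicate 1, adipocyte markers to 86.7 CPM in replicate 2 and 327 CPM in replicate 1, and blood markers to 345 CPM in replicate 2 and 990 CPM in replicate 1. Their part in the results below was not tested.

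The 3′ end of most mammalian mRNAs is made by cleavage downstream of a polyadenylation hexamer, most often AATAAA or its variant ATTAAA in the DNA alphabet, followed by addition of a poly(A) tail. When the machinery uses a site inside an intron, the mRNA keeps its first exons, reads into the intron and lacks the exons that follow, so that the protein, if made, has a different C-terminus. In cDNA methods that prime on poly(A), internal stretches rich in A can be primed as well, and for that reason the bases beside an end are described here where transcript sequence covers them.

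Sequences are shown for chains seen in both libraries with 10 or more reads. The first set holds ends that coincide with an annotated 3′ end, with the hexamer in capitals. All are 30 bases of GENCODE M21 transcripts in mm10 coordinates, written 5′ to 3′ on the strand of the gene. Phf10, Sik3, Brap and Ankrd11 are shown because their chains lack 3 or more introns of an annotated transcript and still stop beside a hexamer, and Pdlim7 and Gprc5c because the chain takes a large share of the gene's reads.
Pdlim7, chr13:55506773-55506802, minus strand: agcatggaAATAAAcattctcggccctgct
Gprc5c, chr11:114869066-114869095, plus strand: ggtgcctAATAAAtacatttctgctttatt
Phf10, chr17:14947738-14947767, minus strand: tcaaaAATAAAtaagccaaaattgtttttg
Sik3, chr9:46202856-46202885, plus strand: agggaagttgaAATAAAatggttttcatgg
Brap, chr5:121665597-121665626, plus strand: ataataAATAAAtacataaaatcttaaaaa
Ankrd11, chr8:122897020-122897049, minus strand: atgtaaatgaaaataAATAAAccagcttac
The hexamer in capitals lay 16 bases before the end in Pdlim7, 17 in Gprc5c, 19 in Phf10 and 13 in Sik3. It lay 33 bases before the end in Brap and 9 in Ankrd11. In Brap and Ankrd11 a further AATAAA overlaps it on the 5′ side and is not marked. The Brap stretch stops at 121665626, before the end of the chain at 121665641.

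The second set holds ends with no hexamer in the last 50 bases, with runs of 3 or more A in capitals. For Son the 20 bases after the end are shown, because 16 of them are A. For Sec62, Lats1 and Trdn, whose ends are the edge of an internal exon, the last 30 bases are shown, and these hold 16 A in Sec62, 10 in Lats1 and 8 in Trdn.
Son, after the end, chr16:91654700-91654719, plus strand: AAAAAgcacAAAAAcAAAAA
Sec62, up to the end, chr3:30809997-30810026, plus strand: AAAgatggtgAAAAggaagattccAAAAAg
Lats1, up to the end, chr10:7697620-7697649, plus strand: ccaggcctattaatgccaccatgAAAccag
Trdn, up to the end, chr10:33233897-33233926, plus strand: aacctgctttgtcaacaacggcccttgaag

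Most reads behind the prefix label lay on chains that hold a last intron of an annotated transcript, mainly through 1 chain of Aldoa. The label was checked against the annotation, and 2316 chains were a strict leading part of an annotated intron chain. These held 2968 reads in replicate 2 and 2407 in replicate 1. The other 849 were a leading part of an unannotated model only, and they held 19050 reads in replicate 2 and 14670 in replicate 1, which is 86.5% of all reads of the 3165 chains in replicate 2 and 85.9% in replicate 1. Of the 849, 491 held an intron that is not annotated. The last intron of some annotated transcript of the gene was present in 795 chains, and these held 83.1% of the reads in replicate 2 and 78.8% in replicate 1. Without the Aldoa chain, the other 794 held 2283 of 6005 reads in replicate 2 and 1932 of 5558 in replicate 1. Since many labelled reads lie on chains that hold a last intron, the chains are called prefix-labelled here.

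A single chain of Aldoa, the muscle form of the glycolytic enzyme aldolase (ENSMUSG00000030695.16, chromosome 7, 126795234 to 126800751, minus strand), took most of these reads. It has 9 exons and had 16013 reads in replicate 2 and 11519 in replicate 1, or 72.7% of the reads of prefix-labelled chains in replicate 2 and 67.5% in replicate 1. All its introns are annotated, it holds a last intron, and its end lies 1309 bases past the annotated end of the gene in replicate 2 and 2124 bases past it in replicate 1. It was labelled prefix in replicate 2 and NIC, a new combination of known splice sites, in replicate 1. With it, prefix-labelled chains made up 1.41% of mouse reads in replicate 2 (exact 95% interval 1.40 to 1.43%) and 1.60% in replicate 1 (1.57 to 1.62%), a mean of 1.50 ± 0.129% (SD, n = 2). Without it the share was 0.386% in replicate 2 and 0.520% in replicate 1. Chains that hold no last intron of an annotated transcript made up 0.239% in replicate 2 and 0.339% in replicate 1. Suffix-labelled chains, which keep the 3′ part and lack the 5′ part, made up 8.16% of reads in replicate 2 and 6.82% in replicate 1, more than prefix-labelled chains in each library.

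The chains were mostly rare. Of the 3165, 2347 had 1 read over both libraries, 547 had reads in both libraries and 101 had 10 or more reads. The median chain had 6 exons and 1911 bases, and 3021 chains belonged to protein-coding genes. Among the 2316 with an annotated parent, the median chain lacked 2 introns of its parent, with a range of 1 to 84. In 840 only the last intron was missing, and in 976 there were 4 or more missing. The median share of the parent's introns present was 61.5%. The end of 1399 of these 2316 chains lay between the start and the stop codon of the parent, that of 540 past the stop codon and that of 26 before the start codon, and 351 had a noncoding parent.

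Prefix-labelled chains ended at 4 main kinds of place. The end was within 50 bases of an annotated 3′ end in 697 chains, or 22.0%. Another 525, or 16.6%, ran to an annotated 3′ end with missing introns of the parent left unspliced inside the last exon. In 508 of the 525 the last exon spanned every missing intron, so these chains lacked splices and not the 3′ part, and in 17 it spanned only some of them. A further 895, or 28.3%, stopped exactly at the 3′ edge of an annotated exon with no complete annotated 3′ end within 50 bases. This class is called internal exon edge here, though it can include last exons of transcripts that GENCODE tags as incomplete at the 3′ end. Of the rest, 344 stopped inside an exon and 623, or 19.7%, in an intron more than 10 bases past any annotated exon of the gene. Only 35 had a listed end beyond the gene, but these include the Aldoa chain and held 73.9% of the reads in replicate 2 and 69.1% in replicate 1. Suffix-labelled chains ended in an intron in 0.347% of cases and at an internal exon edge in 0.461%, and 88.1% ended at an annotated 3′ end. The kinds of place are partly set by the labels, since a suffix-labelled chain must hold the last introns of some model, so the difference was not tested.

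**Figure D1:**
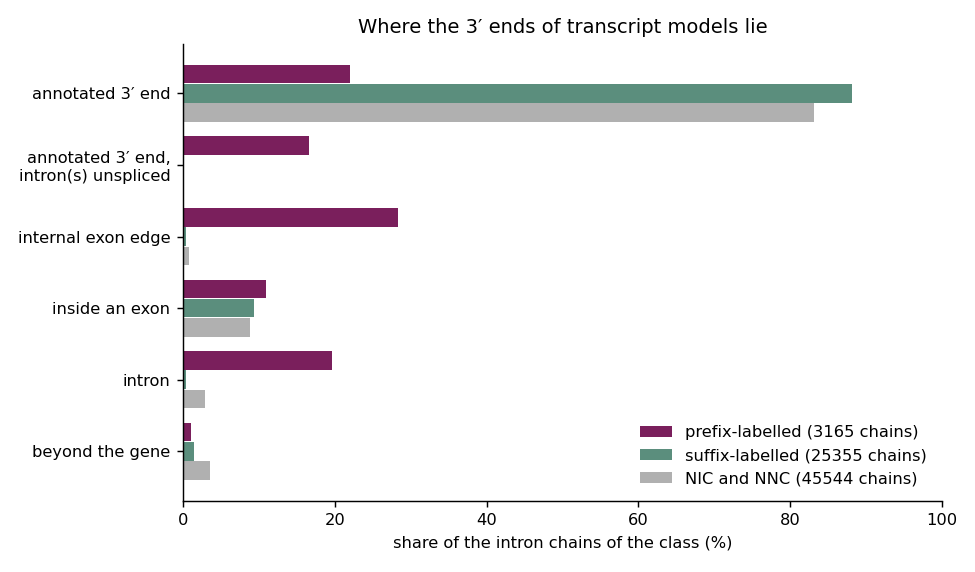
Share of intron chains (x axis, %) by the place of the model's 3′ end (y axis), for prefix-labelled, suffix-labelled, and NIC and NNC chains (new combinations of known splice sites, and chains with a new splice site). Internal exon edges take 28.3% and introns 19.7% of prefix-labelled chains, and the class with unspliced introns was assigned only to chains with an annotated parent, so the other classes hold 0 there by construction.

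The deposited models give 1 end per chain and library, and many ends are copies of annotated coordinates. In 2115 of the 3165 chains the listed end was exactly an annotated exon edge, and in 1336 the whole last exon was an annotated exon. In 607 chains with an annotated parent the end was exactly the splice donor of the parent's exon, against 22 that stopped 1 to 10 bases before it and 12 that ran 1 to 10 bases past it. Whether such an end is where the reads stopped cannot be told from these models. Of the 547 chains with a model in both libraries, 345 had the same end and 409 had ends within 25 bases. Among the 176 of these whose end was no annotated exon edge, 59 had the same end and 90 had ends within 25 bases.

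The bases before the ends are given by the kind of place. Places were defined by annotated coordinates and the bases came from annotated transcripts, so differences between places are partly set by the annotation. The last 50 bases of each model were searched for AATAAA and ATTAAA on the strand of the transcript. A hexamer was found in 407 of 694 ends at an annotated 3′ end (58.6%) and in 426 of 522 ends reached across unspliced introns (81.6%). It was found in 68 of 234 ends inside an exon (29.1%) and in 55 of 890 internal exon edges (6.18%). For comparison, a hexamer was held by 3.52% of all 50-base windows of the GENCODE M21 transcripts of the same genes. Of the ends of annotated chains with reads, 70.0% held one. That last set keeps transcripts tagged as incomplete at the 3′ end, which the annotated 3′ ends above leave out. The 20 bases after the end could be read only where an annotated exon continues. They held 12 or more A in 38 of 185 ends at an annotated 3′ end (20.5%), 20 of 322 inside an exon (6.21%) and 6 of 122 exon edges (4.92%). Of all 20-base windows of transcripts of the same genes, 1.08% did. A match describes these letters only, and no sequence was read at ends in introns.

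**Figure D2:**
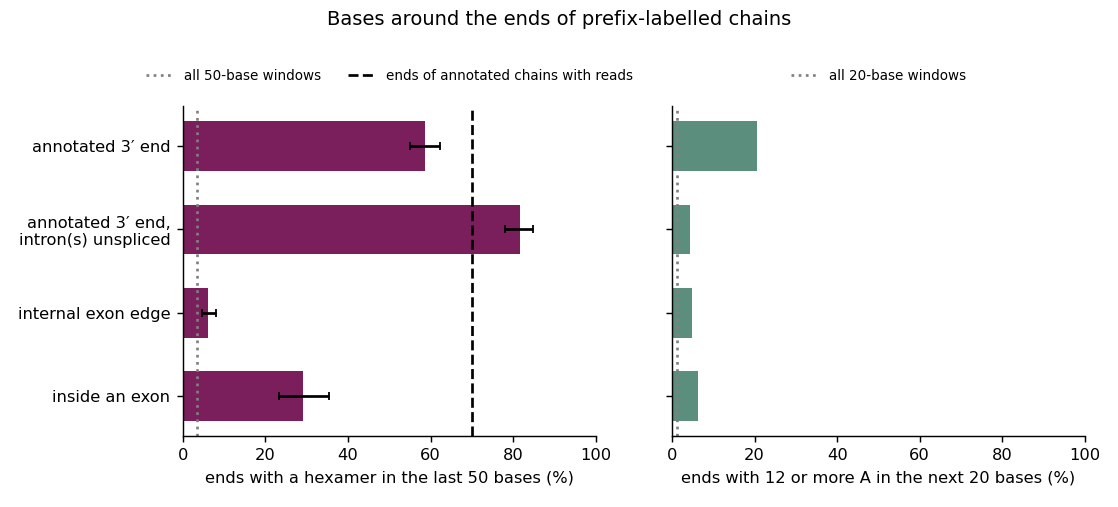
Share of ends (x axes, %) by place of the end (y axis). Left, ends with AATAAA or ATTAAA in the last 50 bases, with exact 95% intervals. Right, ends with 12 or more A in the next 20 bases, where annotated exon sequence continues. The lines mark all windows of the same length in transcripts of the same genes (3.52% and 1.08%) and the ends of annotated chains with reads (70.0%). Ends at annotated 3′ ends stand at 58.6% and internal exon edges at 6.18% in the left panel.

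The next chain by mean CPM after Aldoa was a 21-exon chain of Atp2a1, the calcium pump of the sarcoplasmic reticulum of fast fibres (chromosome 7, 126445858 to 126463108, minus strand). It had 214 reads in replicate 2 and 758 in replicate 1. It ends exactly at the annotated 3′ end of the gene, with AATAAA in the last 50 bases, holds 1 unannotated intron and has 1 annotated intron inside its last exon. It was 0.244% of Atp2a1 reads in replicate 2 and 0.449% in replicate 1. The 7-exon chain of Pdlim7, a PDZ and LIM domain protein of the actin cytoskeleton (chromosome 13), had 695 reads in replicate 2 and 353 in replicate 1, and ends at the annotated 3′ end shown above. An 8-exon chain of Atp2a1 had 436 reads in replicate 2 and 391 in replicate 1, and ends in an intron. All Atp2a1 models together had 87863 reads in replicate 2 and 168943 in replicate 1.

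Trdn carried the most read chain that stops at an exon edge well inside a gene. Trdn encodes triadin, which anchors calsequestrin to the calcium release channel at the junctional sarcoplasmic reticulum and is made in long and short forms that share the N-terminal part. The 10-exon chain (chromosome 10, 33083483 to 33233926, plus strand) had 550 reads in replicate 2 and 274 in replicate 1, or 18.8% of Trdn reads in replicate 2 and 31.9% in replicate 1. It lacks 28 of the 37 introns of its annotated parent. Its end is the same in both libraries, and a complete annotated 3′ end of the gene lies 66 bases further on. Longer Trdn chains stop inside an intron. A 21-exon chain of annotated introns had 66 reads in replicate 2 and 70 in replicate 1, and another 21-exon chain, with 1 unannotated intron, had 28 reads in each library. In all, Trdn had 48 prefix-labelled chains, of which 35 ended at an internal exon edge and 11 in an intron.

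The other chains among the 15 with the highest mean CPM were smaller, and those reported here follow. The 8-exon chain of Tmem65, a transmembrane protein, had 156 reads in replicate 2 and 168 in replicate 1 and ends 1013 bases past the annotated gene in replicate 2 and 1548 bases past it in replicate 1. The 20-exon chain of Ehbp1l1 had 55 reads in replicate 2 and 141 in replicate 1 and ends at the annotated 3′ end. Suds3, a subunit of a histone deacetylase complex, had 74 reads in replicate 2 and 72 in replicate 1 on an 11-exon chain that ends 584 bases past the gene in replicate 2 and exactly at the end of the gene in replicate 1. The chains of Aldoa, Tmem65 and Suds3 each hold a last intron. Of the 35 chains with a listed end beyond the gene, 10 had a model in both libraries, and in 8 of these both ends lay past the gene. Agpat3, a lysophospholipid acyltransferase, had 63 reads in replicate 2 and 41 in replicate 1 on an 11-exon chain whose end lies inside an exon, 616 bases before the nearest annotated 3′ end. A 2-exon chain of an unannotated locus on chromosome X had 84 reads in replicate 2 and 37 in replicate 1. Synpo, the actin-binding protein synaptopodin, had 30 reads in replicate 2 and 63 in replicate 1. The chain of Actn3, the actinin of fast fibres, had 60 reads in replicate 2 and 41 in replicate 1, and runs to the annotated 3′ end with its last intron unspliced. Nexn, an actin-binding protein of the Z-disc, had 48 reads in replicate 2 and 40 in replicate 1.

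**Figure D3:**
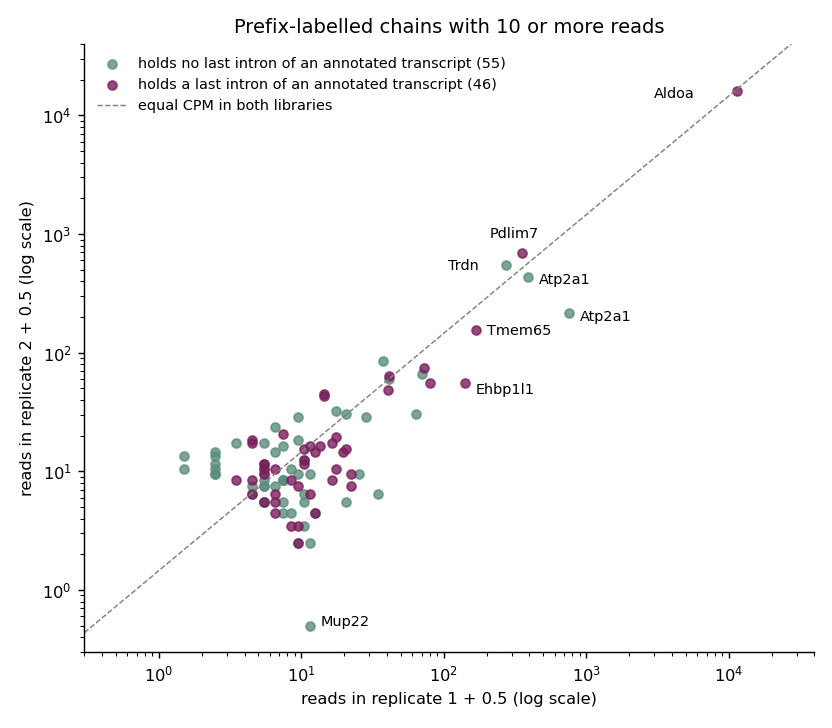
Reads in replicate 2 (y axis) against replicate 1 (x axis) for the 101 prefix-labelled chains with 10 or more reads over both libraries, each with 0.5 added, on log axes. Colour shows whether the chain holds a last intron of an annotated transcript, and the dashed line marks equal CPM. Aldoa stands apart at 16013 reads in replicate 2 and 11519 in replicate 1, and a 21-exon Atp2a1 chain lies below the line at 214 reads in replicate 2 and 758 in replicate 1.

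Few genes were read mainly as prefix-labelled chains. Of 4149 annotated genes with 20 or more reads in each library, 3047 had no such read, 530 had a mean share of reads under 1%, and 9 had a mean share of 50% or more. The share was 50% or more in both libraries in 8 genes. Lats1, a kinase of the Hippo pathway (chromosome 10, 7681214 to 7716460), had the highest mean, with 31 of 34 reads in replicate 2 (91.2%, interval 76.3 to 98.1%) and 20 of 22 in replicate 1 (90.9%, interval 70.8 to 98.9%). Its leading chain has 3 exons and stops at the edge of an internal exon, 5 introns before the end of its parent. The 4-exon chain of Sec62, a subunit of the protein translocation complex of the endoplasmic reticulum, stops at such an edge as well, with 23 reads in replicate 2 and 6 in replicate 1. Pdlim7 had 84.1% in replicate 2 and 86.7% in replicate 1, and Aldoa 78.3% in replicate 2 and 84.0% in replicate 1. Tmem65 had 71.2% in replicate 2 and 69.4% in replicate 1, and Suds3 69.8% in replicate 2 and 66.1% in replicate 1. In Aldoa and Tmem65 the leading chain ends beyond the gene in both libraries, in Suds3 in replicate 2 only, and in Pdlim7 at an annotated 3′ end.

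The remaining genes among the 15 with the highest mean share were as follows. Slc25a23, a mitochondrial carrier, had 18 of 32 reads in replicate 2 and 16 of 20 in replicate 1. Son, a protein of nuclear speckles that acts in splicing, had 32 of 44 reads in replicate 2 and 17 of 31 in replicate 1, all on the 3-exon chain followed by the A-rich bases shown above. Ankrd11, a chromatin regulator, had 19 of 34 reads in replicate 2 and 12 of 23 in replicate 1. Sik3, a salt-inducible kinase, had 10 of 22 reads in replicate 2 and 17 of 28 in replicate 1. Lrp6, a co-receptor for Wnt ligands, had 18 of 36 reads in replicate 2 and 10 of 24 in replicate 1, and its leading chain ends in an intron. Gprc5c, an orphan receptor, had 19 of 40 reads in replicate 2 and 17 of 41 in replicate 1. Synpo stood at 29.7% in replicate 2 and 52.1% in replicate 1, Pnisr at 28.6% in replicate 2 and 46.2% in replicate 1, Trdn at 24.9% in replicate 2 and 48.8% in replicate 1, and Ap3s1, a subunit of the AP-3 adaptor, at 29.7% in replicate 2 and 40.0% in replicate 1. The intervals of the 2 libraries overlapped in 12 of these 15 genes. Overlap was not counted over all genes, so this count describes the 15 only.

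**Figure D4:**
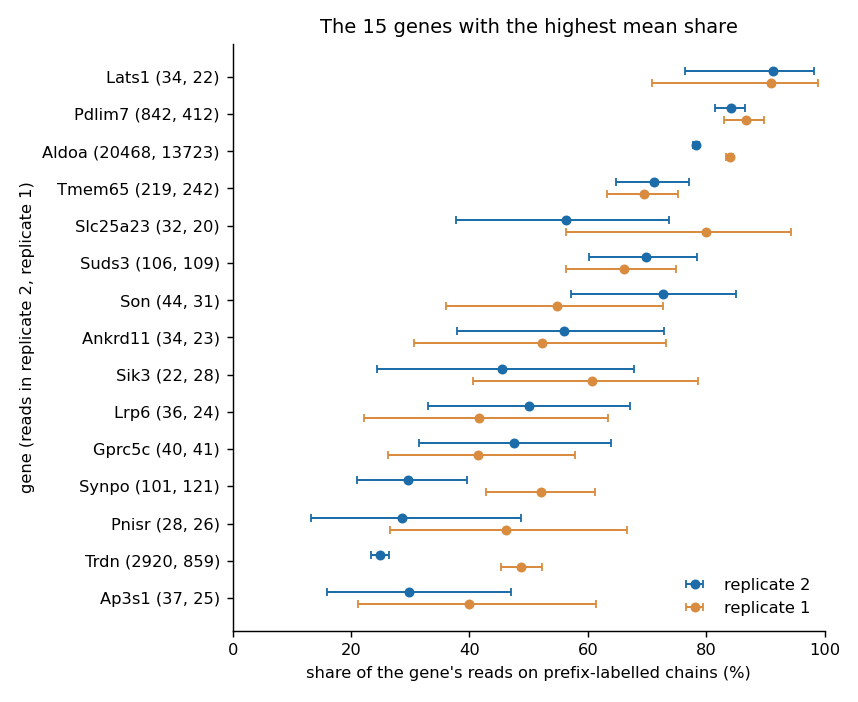
Share of a gene's reads on prefix-labelled chains (x axis, %) in replicate 2 and replicate 1 for the 15 genes with the highest mean share (y axis, with the reads of the gene in replicate 2 and replicate 1). Bars are exact 95% intervals for counting error only. Lats1 stands at 91.2% in replicate 2 and 90.9% in replicate 1, and Trdn at 24.9% in replicate 2 and 48.8% in replicate 1.

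Chains that lack 3 or more introns of an annotated parent and end at another annotated 3′ end numbered 41 among those with reads in both libraries. In the last 50 bases, 21 of these held AATAAA, 5 ATTAAA and 15 neither. The next 20 bases could be read for 11, of which 7 held 12 or more A, and 6 of these 7 had no hexamer. The values of 4 with AATAAA follow. Phf10, a subunit of a chromatin remodelling complex, had 15 reads in replicate 2 and 20 in replicate 1 on a 9-exon chain that lacks 3 of its parent's 11 introns. Its last exon runs 2822 bases past the splice donor that the parent uses. The 14-exon Sik3 chain had 10 reads in replicate 2 and 17 in replicate 1, lacks 10 of 23 introns and runs 815 bases past the donor. Brap, a ubiquitin ligase that binds BRCA1, had 15 reads in replicate 2 and 10 in replicate 1 on a 4-exon chain that lacks 8 of 11 introns. Ankrd11 had 12 reads in replicate 2 and 10 in replicate 1 on a 7-exon chain that lacks 6 of 12 introns and runs 1554 bases past the donor. These 4 chains were picked for holding AATAAA at an annotated 3′ end, so both features follow from the choice. Their listed end was the same in both libraries, as it was for all of the 41 but Arhgef12. Many listed ends are copies of annotated coordinates, so this sameness says little about where reads stopped. The end inside the Son exon, 5881 bases before the donor, has no hexamer in its last 50 bases, the A-rich bases shown above after it and no annotated 3′ end.

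Ends inside introns were spread over many genes and few recurred. The 623 chains that end in an intron came from 515 genes, with 1080 reads in replicate 2 and 1001 in replicate 1. The end lay a median of 913 bases past the last annotated exon base, with a range of 11 to 21999 bases. For 20 of them an exon of another annotated gene on the same strand covers the end. Reads in both libraries were present for 90, and 3 or more reads in each library for 19.

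Requiring that the ends of the models of both libraries lie within 25 bases left 4 of these 19 chains as candidates for early polyadenylation in an intron. Ckmt2, the mitochondrial creatine kinase of sarcomeric muscle (chromosome 13), had 8 reads in replicate 2 and 7 in replicate 1 on a 7-exon chain that ends 65 bases into an intron at position 91859130 and lacks 3 of 9 introns. Jph1, a junctophilin that ties the sarcoplasmic reticulum to the transverse tubule (chromosome 1), had 5 reads in replicate 2 and 7 in replicate 1 on a 2-exon chain that ends 1330 bases into an intron at position 17089968. This was 4.35% of Jph1 reads in replicate 2 and 5.56% in replicate 1. Pde4dip, the scaffold protein myomegalin (chromosome 3), had 3 reads in replicate 2 and 6 in replicate 1 on a 22-exon chain that ends 1749 bases past an exon, with 16 bases between the ends of the libraries. Ubxn2a, a cofactor of the p97 segregase (chromosome 12), had 3 reads in each library on a 6-exon chain that ends 1766 bases into its parent's last intron, at position 4882057. The shares of the gene's reads were lower than for Jph1 in the other candidates. They were 0.297% in replicate 2 and 0.314% in replicate 1 for Ckmt2, and 0.414% and 0.450% for Pde4dip. For Ubxn2a the share was 2.73% in replicate 2 and 1.84% in replicate 1. Hexamers and downstream A content were not read at these positions, since no mm10 genome sequence was used, so these remain candidates by position and reads only.

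In the other 15 chains the ends of the libraries lay further apart, and in 4 of them the end in 1 library was an annotated exon edge. The 8-exon Atp2a1 chain ends at position 126454463 in replicate 2 and 977 bases further along the gene in replicate 1, 1914 bases past an annotated exon at the listed end. The leading 21-exon Trdn chain ends at position 33365372 in replicate 2 and 33368274 in replicate 1, a distance of 2902 bases. Fam120aos, a gene on the strand opposite Fam120a, had all but 1 of its reads on such a chain, with 28 of 29 in replicate 2 and 9 of 9 in replicate 1, and ends 618 bases apart. How strand was assigned is not stated, so reads of Fam120aos and of Myhas, another antisense gene, are uncertain against the gene on the other strand. Lrp6 had 18 reads in replicate 2 and 9 in replicate 1 on a 2-exon chain, which ends at an annotated 3′ end of the gene in replicate 1 and 811 bases past it in replicate 2. Luc7l2, a splicing factor of the U1 snRNP, had 7 reads in replicate 2 and 22 in replicate 1, with ends 3281 bases apart.

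Some intron positions recurred over several chains of a gene. Grouping the ends of all models that lie within 25 bases of each other gave 618 positions, of which 46 had ends from both libraries and 9 had 3 or more reads in each. These 9 were counted after the values of single chains were seen, and a model's listed end stands for all its reads. A position in Trdn, 33365372 to 33365373, was the end of 3 chains with 72 reads in replicate 2 and 4 in replicate 1. In Mybpc1, the slow myosin-binding protein C (chromosome 10), position 88540079 was the end of 4 chains with 3 reads in replicate 2 and 9 in replicate 1. Clec16a, a protein of the mitophagy pathway (chromosome 16), had 3 chains at position 10633062 with 3 reads in replicate 2 and 5 in replicate 1. Asb2, a muscle ubiquitin ligase subunit (chromosome 12), had 2 chains at position 103332647 with 3 reads in each library. Myhas, an antisense gene of the myosin heavy chain locus (chromosome 11), had 3 chains at 67218678 to 67218690 with 5 reads in replicate 2 and 3 in replicate 1. The other 4 positions were those of Ckmt2, Jph1, Pde4dip and Ubxn2a.

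**Figure D5:**
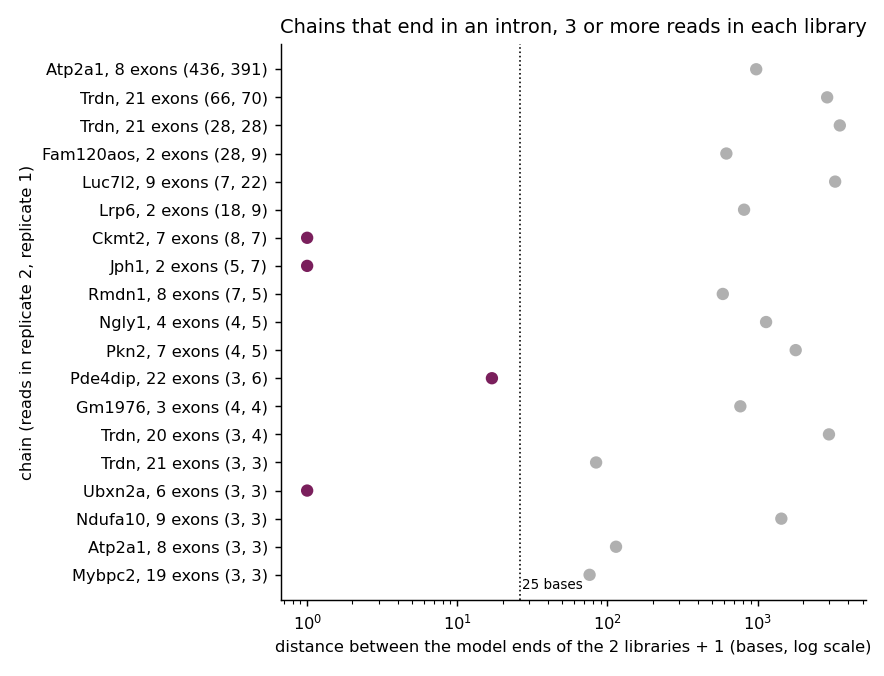
Distance between the model ends of the 2 libraries plus 1 (x axis, bases, log scale) for the 19 chains that end in an intron with 3 or more reads in each library (y axis, with reads in replicate 2 and replicate 1). The dotted line marks 25 bases. Ckmt2, Jph1, Ubxn2a and Pde4dip lie to its left, and the most read Atp2a1 chain lies at 977 bases.

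Between the libraries, 101 prefix-labelled chains had the 10 reads needed for a test. Fisher's exact test (two-sided, chain reads against all other mouse reads, Benjamini-Hochberg adjustment over all 14169 chains tested) called 28 of the 101, or 27.7%, at an adjusted p under 0.05. Over all classes of chain 43.2% were called, so the share among prefix-labelled chains was below that background. In 6 of the 28 the ratio favoured replicate 2, and in 22 replicate 1, where 23.8% of all chains tested were called higher and 19.4% lower in replicate 2. That split was 12 and 17 with TMM library sizes and 13 and 14 with DESeq2 size factors, which shift every log2 ratio by 0.14 and 0.22. The median log2 ratio of the 101 was -0.33, against -0.08 over all chains tested. This test does not separate a chain's share of its gene from the abundance of the gene. Several of the 22 chains were from Atp2a1, which had 87863 reads in replicate 2 and 168943 in replicate 1. Calls on chains of 1 gene are not independent.

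The lowest ratios were in chains with few reads. A 6-exon chain of Mup22, from the major urinary protein family of near-identical genes, had 0 reads in replicate 2 and 11 in replicate 1, at least 5.34-fold lower in replicate 2 against the limit that 0 reads allow, and its reads could belong to another member. A 20-exon Atp2a1 chain had 6 reads in replicate 2 and 34 in replicate 1, a log2 ratio of -2.95 (Fisher's exact test, adjusted p = 1.06e-07). Nupl1, a nucleoporin, had 2 reads in replicate 2 and 11 in replicate 1. Kcnma1, the large-conductance potassium channel, and AC149090.1 each had 2 reads in replicate 2 and 9 in replicate 1. The 21-exon Atp2a1 chain, at a log2 ratio of -2.36, had the smallest adjusted p, 1.05e-121.

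Among the highest ratios, Tnnt3, fast troponin T, had 13 reads in replicate 2 and 1 in replicate 1 on a 3-exon chain, a log2 ratio of 2.63 (Fisher's exact test, adjusted p = 0.0292). Tpm3, a tropomyosin, had 17 reads in replicate 2 and 3 in replicate 1 on a chain that runs to the annotated 3′ end through its last intron. Lsm6, a component of the U6 snRNP, had 44 reads in replicate 2 and 14 in replicate 1. Hrc, a calcium-binding protein of the sarcoplasmic reticulum, had 43 reads in replicate 2 and 14 in replicate 1. The 10-exon Trdn chain had a log2 ratio of 0.46 (Fisher's exact test, adjusted p = 6.49e-05). As a share of its gene's reads, the Tpm3 chain was lower in replicate 2 (0.83%) than in replicate 1 (1.59%). So were the Hrc chain, at 0.737% in replicate 2 and 1.33% in replicate 1, and the Trdn chain, at 18.8% and 31.9%. The Tnnt3 chain was at 0.302% in replicate 2 and 0.0612% in replicate 1, and the Lsm6 chain at 24.7% and 23.3%. Aldoa had 10281 CPM in replicate 2 and 10768 CPM in replicate 1. Its log2 ratio of -0.07 turned to 0.07 with TMM library sizes and 0.15 with DESeq2 size factors, so no direction is given for it.

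Within genes, the share of prefix-labelled reads differed between the libraries in 5 of 1102 genes tested, 0.454% of them (Fisher's exact test, two-sided, Benjamini-Hochberg adjustment over the 1102). All 5 were lower in replicate 2. At an unadjusted p under 0.05, 11 genes were higher and 22 lower in replicate 2. The share of Trdn differed by -23.9 percentage points (replicate 2 minus replicate 1, adjusted p = 5.07e-36), on 2920 reads of the gene in replicate 2 and 859 in replicate 1. That of Aldoa differed by -5.70 points (adjusted p = 1.64e-36) and that of Ehbp1l1 by -17.4 points (adjusted p = 0.000348). Nexn was at 6.13% in replicate 2 and 14.2% in replicate 1 (adjusted p = 0.000541). AC149090.1, on an unplaced scaffold, was at 1.89% in replicate 2 and 17.6% in replicate 1 (adjusted p = 0.00324). Counted over reads of ISM, annotated, NIC and NNC models alone, Nexn and AC149090.1 no longer passed (adjusted p = 1 for each). Each test sets the reads of 1 library against those of the other, so animal, dissection and library preparation cannot be told apart.

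The share of reads with the label was summed over 6 groups of genes. Thick and thin filament genes had prefix-labelled chains in 19 of 23 members, where 2058 of all 15521 annotated genes measured did. The groups were not matched to all genes by read number. In this group the chains were 0.0712% of reads in replicate 2 and 0.0920% in replicate 1. Over all annotated genes without Aldoa the share was 0.400% in replicate 2 and 0.536% in replicate 1. Of the 158 chains of thick and thin filament genes, 76 ended at an internal exon edge and 17 in an intron. Giant and Z-disc genes had 0.377% in replicate 2 and 0.795% in replicate 1, over 14 of 19 members with such chains. Neb, the giant filament protein nebulin, had 15 of 205 reads in replicate 2 and 23 of 199 in replicate 1, spread over 23 chains of which 21 ended at an exon edge. Ttn, titin, had 7 of 377 reads in replicate 2 and 14 of 439 in replicate 1, over 15 chains. Myh4, the fast IIb myosin heavy chain, had 24 chains with 16 reads in replicate 2 and 29 in replicate 1.

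Calcium handling genes had 1.34% of their reads on prefix-labelled chains in replicate 2 and 0.951% in replicate 1, and 0.262% in replicate 2 and 0.227% in replicate 1 without Atp2a1 and Trdn. Glycolysis and glycogen genes had 22.3% in replicate 2 and 22.4% in replicate 1, and 0.0794% in replicate 2 and 0.0792% in replicate 1 without Aldoa. Creatine and adenylate genes had 0.0399% in replicate 2 and 0.0314% in replicate 1. Collagen and matrix genes had 0.199% in replicate 2 and 0.146% in replicate 1. These shares follow each group's few leading chains and were given no test.

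Genes known for intronic polyadenylation gave little to measure. Of 13 such genes, 12 had reads and 3 had a prefix-labelled chain. Ighm, the immunoglobulin mu heavy chain, whose membrane and secreted forms differ by the polyadenylation site, had 10 such chains, with 13 of 186 gene reads in replicate 2 and 5 of 61 in replicate 1, all ending at an annotated 3′ end. Eif2ak1, a kinase of the integrated stress response, had 1 read of 63 in replicate 2 and 0 of 58 in replicate 1 on a chain that stops at an exon edge. Zmym3, a zinc finger protein, had 3 of 8 reads in replicate 2, on a chain that ends at an annotated 3′ end, and had 0 reads in replicate 1. Cstf3, Pcf11, Flt1, Kdr, Rbbp6, Pdgfra, Egfr, Magi3 and Dicer1 had 2 to 33 reads over both libraries and no prefix-labelled chain, and Calca had no read. At this depth the absence of such chains says little about these genes.

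The genes of the cleavage and polyadenylation machinery were compared between the libraries as a description of the setting. Of 33 listed genes, 30 had the 10 reads needed. With total reads as library size, 4 passed, of which 1 was higher and 3 were lower in replicate 2 (Fisher's exact test, Benjamini-Hochberg adjustment over 8892 genes, of which 26.0% were called). The median log2 ratio of the 30 was -0.01, against -0.18 over all genes tested. Snrpc, a protein of the U1 snRNP that guards against early polyadenylation, had 71 reads in replicate 2 and 27 in replicate 1 (adjusted p = 0.0323). The scaffold Sympk had 11 reads in replicate 2 and 24 in replicate 1 (adjusted p = 0.00887). These genes were called in the same direction under all 3 scalings. The split over the list turned round with TMM library sizes and with DESeq2 size factors, where 5 genes were called higher (Snrpc, Nudt21, Pabpc4, Ppp1ca and Ssu72) and 1 lower (Sympk), so no direction is given for the list. Papola, a poly(A) polymerase, and Cstf2t were called lower with total reads only.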

How the data were processed

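Long-read RNA sequencing libraries of 2 gastrocnemius samples were analysed, 1 library each. The deposited tables hold raw read counts per transcript model, as their whole-number values show, with exon numbers and lengths, and the authors applied no normalization to them. Alignment to mm10 and the GENCODE M21 annotation are stated in the notes deposited with the tables, and TALON is the source named in the gene models. The aligner, versions, read filters and cDNA priming were not given in the sources used here. The members and lists below were chosen with earlier results of these data known.

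Chains were matched by chromosome, strand and introns between the tables and gene models. A chain had the prefix label if either library gave it, and its listed end was taken from the library with more reads. ERCC spike-ins, 31067 reads in replicate 2 and 30993 in replicate 1, were left out. The total was 1588661 reads in replicate 2 and 1100764 in replicate 1. Ends were placed against all exons of the gene with 10 bases of slack. Annotated 3′ ends exclude transcripts that GENCODE tags as incomplete there, and an end within 50 bases counted as reached. Hexamers and A content (12 or more of 20 bases) were read from GENCODE M21 transcript sequences of the same build. A mean is over n = 2, and the log2 ratio is replicate 2 over replicate 1 with 0.5 reads added.

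Chains with 10 or more reads over both libraries, genes with 10 or more, and shares of genes with 20 or more in each library were compared by Fisher's exact test, two-sided, with Benjamini-Hochberg adjustment and a threshold of 0.05. It measures counting error between 2 libraries, with no estimate of the spread between animals, and reads without molecular identifiers are not independent molecules. Both tests were tested on simulated data with sampling noise alone. With 200 of 14169 chains changed 4-fold, the chain test called 100% of those with a mean of 20 or more reads and 0.0787% of unchanged chains. With the share of 200 of 4149 genes set to 50% in replicate 2 against 5% in replicate 1, the share test called 91% of them and 0.0253% of the others. The other genes were given 5% in both libraries. In the data 3047 of the 4149 had no prefix-labelled read, and called differences ran from -5.70 to -23.9 points. The 91% therefore does not carry over to shares and differences of that size. Annotated chains carry the annotation's own ends in the deposited models, so they were given no share of ends. R 4.3.3 ran edgeR 4.0.16 for TMM factors and DESeq2 1.42.0 for size factors. Chains, ends and tests were computed with scipy 1.17.1, numpy 2.4.6 and pandas 2.3.3 under Python 3.11.15. Intervals are exact Clopper-Pearson 95% intervals, and a limit for 0 reads is 3 reads.

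Named were the 15 chains with the highest mean CPM, the 15 genes with the highest mean share, the candidate chains, the 5 largest and 5 smallest ratios among called chains, the genes called in the share test, and the measured genes of the intronic polyadenylation list. Phf10, Brap, Sec62, Fam120aos, Luc7l2, Neb, Ttn, Myh4, Mybpc1, Clec16a, Asb2, Myhas, the machinery genes and the sequences shown were chosen after their values were seen. Results of a few items the rule took are not reported here. Alternatives changed the label, denominators, minimums, slack and scaling, and left out each replicate.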

Additional observations from a re-analysis of the deposited data

How the results depend on the processing

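The share of mouse reads on prefix-labelled chains, 1.50 ± 0.129% (SD, n = 2), depends mostly on what counts as a member. It was 1.66% with the Both subtype included, 0.933% with each library's own label, and 1.68% over reads of models with 2 or more exons. Over all 2430 chains that are a strict leading part of an annotated chain, with or without the label, it was 0.226%. Over the 2316 of these with the label it was 0.208%. With each library's own label it was 1.37% in replicate 2 and 0.497% in replicate 1, since the Aldoa chain carries the label only in replicate 2. In alternatives chosen after seeing the data it was 0.453% without the Aldoa chain and 0.289% for chains with no last intron. Leaving out a replicate gave 1.41 to 1.60%. Of chains, 28 differed between the libraries, and 15 did with no read minimum, where more chains are tested. Genes with a differing share numbered 5, and 3 when only reads of ISM, annotated, NIC and NNC models were counted. Chains ending in an intron made up 19.7% of chains, but 38.0% when only exons of annotated transcripts with reads were used, 5.38% of reads, 18% of reads without the Aldoa chain (added after seeing the data), and 18.4 to 20.2% from the model ends of 1 library. The 4 candidate chains became 9 with 2 reads in each library, 2 with 5 reads, and, in alternatives added after seeing the data, 19 with no limit on end agreement and 9 positions when ends were grouped by gene. The 8 genes with a share of 50% or more became 4 with 50 gene reads in each library, 22 at 20% or more, 3 at 75% or more, and 9 to 10 with a replicate left out. The log2 ratio of the Aldoa chain, -0.07, reversed to 0.0703 with TMM library sizes and 0.15 with DESeq2 size factors. That of the 8-exon Atp2a1 chain, -0.39, was -0.16 with DESeq2 size factors and no longer passed. Machinery genes called numbered 4, and 6 with either scaling added after seeing the data, with 5 higher and 1 lower in replicate 2 in place of 1 higher and 3 lower. The other alternatives run, 22 for the main results and 9 for single chains, stayed within 1.5 times the count, within 1 SD or on the same side of the threshold. Fewer than 10 of 20 downstream A was not run for the candidate chains, which had no sequence. With a median of 1 read per chain, most ends rest on 1 molecule, and shares of genes near 20 reads have wide intervals.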
